A study of Rattus norvegicus with 6 samples.

Results

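The genes of the interferon-induced antiviral response Rsad2, Irf7, Mx1, Mx2, Oas1a, Oas1b, Eif2ak2, Stat2, Gbp2 and Ifitm3 were followed in cultured rat fibroblasts by microarray. Every probe set that maps to exactly 1 gene with such a symbol was taken, which gave 13 probe sets for 10 genes, out of 4818 tested probe sets and 2890 named genes. Rsad2, Irf7 and Eif2ak2 had 2 probe sets each. The arrays fall into 4 groups. Untreated 208F, an immortal fibroblast line, had 1 array and untreated FE8, an HRAS-transformed fibroblast line, had 1 array. Each line was also measured on 2 arrays after 96 h with 0.3 µM 5-aza-deoxy-cytidine (decitabine), called the drug here. The drug is a cytidine analogue that traps DNA methyltransferases, so that DNA loses methylation as cells divide. The labels give 1 transformed line and do not state how HRAS was introduced, whether FE8 is 1 clone, or whether duplicates came from separate cultures, so p-values measure the spread between these arrays, which may be technical. Each array measured RNA of a whole culture, in which fewer cells with a transcript and less transcript per cell cannot be told apart.

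Interferons are secreted proteins that bind receptors on the cell surface and, through JAK kinases, activate STAT2, which acts with IRF9 in a complex that binds the interferon-stimulated response element in target promoters. Among its targets are IRF7, a transcription factor that in turn raises interferon genes, and effectors that block viral entry, transcription, translation and RNA stability. Fibroblasts are a classical cell type for this response.

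The arrays were comparable in brightness, with median signals from 354 to 422. Both untreated arrays shared a chip lot and a scan day, while all 4 treated arrays were scanned on later days. The drug and the scan day therefore cannot be told apart in any drug difference below. Among the treated arrays, 208F replicate 1 had a chip lot and a scan day of its own, and the other 3 shared theirs. The ratio of 5' to 3' signal of beta-actin, a sign of RNA quality, ran from 0.351 in untreated FE8 to 0.824 in untreated 208F. That of Gapdh was 0.691 in untreated FE8, 0.916 in untreated 208F and 1.01 to 1.13 on the treated arrays. Both ratios were lowest in untreated FE8, the only baseline of the drug differences in FE8. Their part in the results was not tested. Of 10 fibroblast marker genes, 9 were measured, and their summed signal was 159448 in untreated and 120234 and 96198 in treated 208F, and 63374 in untreated and 45466 and 45300 in treated FE8. The intermediate filament vimentin (Vim) was at 7118 or more on every array, while Col1a1, a chain of type I collagen, was at 130 to 177 in untreated FE8 by its 4 probe sets, so this defining marker of fibroblasts was low in FE8. Of 12 macrophage and leukocyte markers only Cd14 was among the measured genes, with a summed signal of 518 in untreated and 802 and 611 in treated 208F, and 311 in untreated and 723 and 420 in treated FE8, and of 12 lymphocyte markers Gzmb and Cd8b, which summed to at most 327 on any array. Of 6 endothelial markers 2 were measured, and Flt1, a receptor of vascular growth factors, was at 286 in untreated and 250 and 195 in treated 208F, and 113 in untreated and 507 and 540 in treated FE8, a rise in FE8 of 1.73 ± 0.36 (adjusted p = 0.013). Kdr, another such receptor and the other one measured, was at 14 in untreated and 19 and 3 in treated 208F, and 84 in untreated and 9 and 2 in treated FE8, a difference of -1.09 ± 0.39 in FE8 (adjusted p = 0.12). The part of these markers in the results was not tested.

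The promoters are shown first, because the element bound by the interferon-activated complex is spelled out in them. Promoter sequences from RefSeq (GRCr8) were found for 9 of the 10 genes, all but Mx2. The core of the interferon-stimulated response element was searched as GAAA, any 2 bases, GAAA, on both strands of the 250 bases before the annotated start. It was found in 7 of the 9 promoters, against 3.41% of 33469 promoters of the table. The stretches that hold it are printed 5' to 3' on the gene's strand, with the matches in capitals and up to 30 bases on each side.
Rsad2 (chr6:48788228-48788297, minus strand): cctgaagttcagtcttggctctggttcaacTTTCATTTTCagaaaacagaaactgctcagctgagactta
Irf7 (chr1:205800053-205800122, minus strand): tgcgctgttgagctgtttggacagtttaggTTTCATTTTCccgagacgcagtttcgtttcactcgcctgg
Oas1a (chr12:41330395-41330465, plus strand): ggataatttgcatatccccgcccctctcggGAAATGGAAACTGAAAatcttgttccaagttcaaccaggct
Oas1b (chr12:41395866-41395941, minus strand): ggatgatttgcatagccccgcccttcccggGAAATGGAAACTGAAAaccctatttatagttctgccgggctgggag
Eif2ak2 (chr6:21941108-21941153, plus strand): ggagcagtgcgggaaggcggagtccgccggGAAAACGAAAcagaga
Gbp2 (chr2:234005666-234005726, plus strand): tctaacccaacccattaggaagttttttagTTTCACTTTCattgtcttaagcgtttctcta
Ifitm3 (chr1:205541763-205541832, minus strand): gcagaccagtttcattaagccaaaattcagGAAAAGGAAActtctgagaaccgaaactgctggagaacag

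In Rsad2, Irf7 and Gbp2 the match read on the opposite strand. Oas1a and Oas1b, both on chromosome 12, each held a pair of overlapping matches with the same letters. Mx1 and Stat2 had no match in this window, which says only that these letters are not in it. The gamma-activated site, TTCNNNGAA, the element of the type II interferon response, was in the windows of Oas1a, Oas1b and Ifitm3, against 7.67% of all promoters. The number of CG dinucleotides, the sites at which mammalian DNA is methylated, was 2 in Rsad2 and Gbp2, 3 in Oas1a, 4 in Oas1b, 5 in Mx1, 7 in Ifitm3, 15 in Irf7, 18 in Stat2 and 19 in Eif2ak2, where the median of all promoters was 5. Rsad2 with 2 and Irf7 with 15 were the genes with the largest drug differences in FE8, given below. DNA methylation of these promoters was not analysed here.

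Irf7, the transcription factor that amplifies the interferon response, was read by a pair of probe sets made from the same transcript. With rc_AA799861_g_at the signal was 330 in untreated and 770 and 890 in treated 208F, and 346 in untreated and 2497 and 5724 in treated FE8. With rc_AA799861_at it was 73, 139 and 138 in 208F and 52, 474 and 982 in FE8, in the same order. Both treated FE8 arrays stood above all the others with either probe set. Stat2, a subunit of the complex activated by type I interferon, was at 187 in untreated and 230 and 269 in treated 208F, and 523 and 646 in treated FE8, with untreated FE8 between the treated 208F arrays. Its treated FE8 arrays were also the highest, within a narrower range, the top array being 3.46 times the lowest.

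Rsad2 encodes viperin, a radical SAM enzyme that makes a chain-terminating nucleotide and restricts many viruses. It spanned the widest range of the 10 genes. With Y07704_g_at its signal was 10 in untreated and 313 and 520 in treated 208F, and 137 in untreated and 7218 and 12230 in treated FE8. With Y07704_at, from the same transcript, it was 34, 402 and 375 in 208F and 140, 3007 and 6370 in FE8. Each treated array was above its untreated control with both probe sets, and treated FE8 was far above treated 208F. In the g_at probe set the treated FE8 signals were 52.7 and 89.3 times the untreated one. The treated 208F signals were 31.3 and 52 times the untreated one, which at 10 was dim, so these ratios are imprecise.

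Mx1 and Mx2 are dynamin-like GTPases that trap viral nucleocapsids, the rat Mx1 protein in the nucleus and Mx2 in the cytoplasm. Mx1 was at 46 in untreated and 43 and 5 in treated 208F, and 30 in untreated and 137 and 199 in treated FE8. Only the treated FE8 arrays exceeded 64, the value added before the logarithm. Mx2 was at 25 in untreated and 46 and 167 in treated 208F, and 126 in untreated and 298 and 880 in treated FE8. Its duplicates differed widely in both lines, although the treated FE8 arrays were still the highest. The treated FE8 signals were 2.37 and 6.98 times the untreated one, and untreated 208F lay below 64. The Mx genes are similar in sequence, and how far a probe set reads more than 1 of them was not tested.

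Oas1a and Oas1b belong to the 2'-5'-oligoadenylate synthetase family, whose active members sense double-stranded RNA and switch on RNase L. Oas1a was at 325 in untreated and 416 and 283 in treated 208F, and 274 in untreated and 860 and 792 in treated FE8. The treated FE8 arrays lay close together and above the other 4, which overlapped. Oas1b was at 2, 5 and 4 in 208F and at 2, 9 and 58 in FE8, in the same order. All 6 values were below 64, so that no difference of Oas1b could be sized.

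Eif2ak2 encodes the kinase PKR, which stops translation when it binds double-stranded RNA. With L29281_at it was at 663 in untreated and 632 and 1634 in treated 208F, and 347 in untreated and 1586 and 2157 in treated FE8. With rc_AI013987_s_at it was at 74, 40 and 239 in 208F and 34, 258 and 407 in FE8. Here the 208F duplicates disagreed, replicate 1 lying below the untreated array and replicate 2 near the level of treated FE8 replicate 1. L29281_at was the probe set in which the treated lines overlapped. Gbp2, a large GTPase that attacks membranes around intracellular pathogens, was at 23 in untreated and 85 and 233 in treated 208F, and 99 in untreated and 285 and 754 in treated FE8. Its treated FE8 signals were 2.88 and 7.62 times the untreated one. Ifitm3, a membrane protein that blocks fusion of viruses in endosomes, was at 2878 in untreated and 1878 and 2522 in treated 208F, and 3643 in untreated and 4812 and 8163 in treated FE8. For Ifitm3 and for Mx1 both treated 208F arrays were below the untreated one while both treated FE8 arrays were above theirs.

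**Figure D1:**
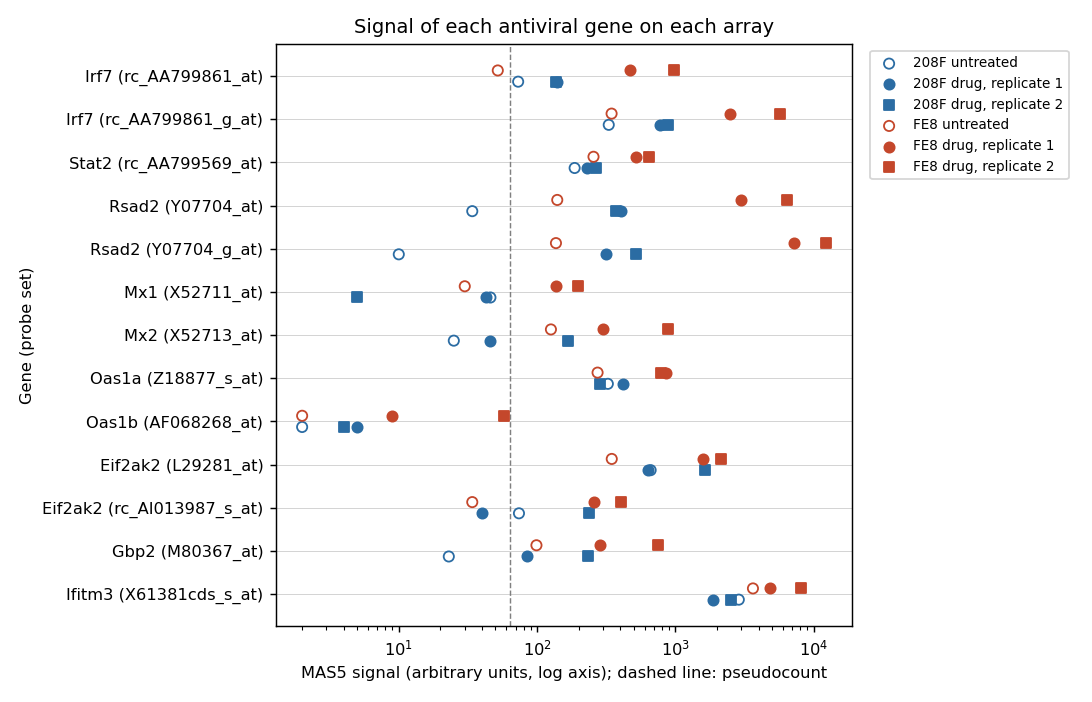
Signal of each of the 13 probe sets on each array (x axis, MAS5 signal in arbitrary units, log scale; y axis, gene and probe set). Each point is 1 array, open for untreated and filled for treated (circles replicate 1, squares replicate 2), blue for 208F and red for FE8, and the dashed line marks 64, the value added before the logarithm. The treated FE8 arrays lie to the right of all other arrays in 12 of 13 rows, the exception being Eif2ak2 with L29281_at.

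Across the members, both treated FE8 arrays exceeded the other 4 arrays in 12 of 13 probe sets, which held for 11.6% of all tested probe sets. The level of treated FE8 was therefore highest, and the other 3 groups had no common order. Untreated FE8 was above untreated 208F in 7 of 13 probe sets, against 51.6% of all, and both treated 208F arrays were above untreated 208F in 8 of 13, against 44.1%. The members were chosen with earlier results of these data known. Their counts beside the share of all probe sets, here and below, may partly follow from that choice.

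The first comparison asked whether the antiviral genes differed between the lines before treatment, FE8 (n = 1) against 208F (n = 1). None of 13 probe sets passed the threshold, an adjusted p of 0.05 by limma, while 5.92% of all 4818 did (3.09% higher and 2.82% lower), and 2 of 13 had an unadjusted p under 0.05, against 15.7% of all. Differences in log2(signal + 64) ran from -0.82 to 1.44, with a median of 0.06 beside 0.02 over all probe sets. Those with an unadjusted p under 0.05 were the probe sets of Rsad2, at 1.44 ± 0.44 (SE, adjusted p = 0.10) for Y07704_g_at and 1.06 ± 0.47 (adjusted p = 0.31) for Y07704_at. Mx2 was at 1.09 ± 0.68 and Gbp2 at 0.91 ± 0.64, Irf7 at 0.06 ± 0.48 with rc_AA799861_g_at, and Eif2ak2 at -0.82 ± 0.52 with L29281_at. Neither arm was replicated, so the error came from the treated duplicates. Leaving out a treated array kept each of these differences the same and changed only their error.

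Under the drug, FE8 (n = 2) was compared with 208F (n = 2), in the same model as above, whose error comes from these 4 arrays in every comparison. In FE8 8 probe sets of 6 genes were higher and none was lower, 8 of 13 where 7.08% of all probe sets were called, 3.42% higher and 3.65% lower. Rsad2 was higher by 4.33 ± 0.31 with Y07704_g_at (adjusted p = 1.0e-05), the fourth highest value of all probe sets, and by 3.30 ± 0.33 with Y07704_at. Irf7 was higher by 2.11 ± 0.34 (adjusted p = 0.0024) and 1.89 ± 0.36, Mx2 by 1.87 ± 0.48 (adjusted p = 0.038), Ifitm3 by 1.5 ± 0.28 (adjusted p = 0.0064), Mx1 by 1.42 ± 0.35 (adjusted p = 0.034) and Oas1a by 1.12 ± 0.28 (adjusted p = 0.034). Stat2 missed the threshold at 1.04 ± 0.29 (adjusted p = 0.052), as did Gbp2 at 1.34 ± 0.45 (adjusted p = 0.12), Eif2ak2 at 1.13 ± 0.47 and 0.82 ± 0.37, and Oas1b at 0.46 ± 0.35. The median of the 13 was 1.42, beside -0.00026 over all probe sets, and all 13 were above 0. All 4 arrays were separated by line in 12 of 13, against 20.7% of all probe sets that were higher in this way.

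Each treated array was also left out in turn. The median of the 13 was 1.88 without FE8 treated replicate 1 and 1.18 without FE8 treated replicate 2. Each such fit takes its error from 1 pair of duplicates. The count of calls is therefore not comparable with that of the main fit, and what moved it was not tested. It was 5 without FE8 treated replicate 1, leaving Ifitm3, Irf7 and Rsad2, and 2 without FE8 treated replicate 2, the pair of Rsad2. In those fits the error came from the 208F duplicates alone, and the share of all probe sets called fell to 2.82% and 1.99%. Without 208F treated replicate 1, which leaves only arrays of the same chip lot, the same 8 probe sets passed and the median was 1.34, with 10.2% of all probe sets called. Without 208F treated replicate 2, 10 passed and 6 of the 8 were shared, Mx1 (adjusted p = 0.12) and Oas1a (adjusted p = 0.097) being lost and Gbp2, Stat2 and both probe sets of Eif2ak2 gained, with 530 of all 4818 called. The Mx2 call also ended with a smaller added value (adjusted p = 0.052), without the intensity trend (0.057), with quantile normalization (0.067) and with a minimum mean signal of 200 (0.081). That of Oas1a ended with quantile normalization (adjusted p = 0.055).

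**Figure D2:**
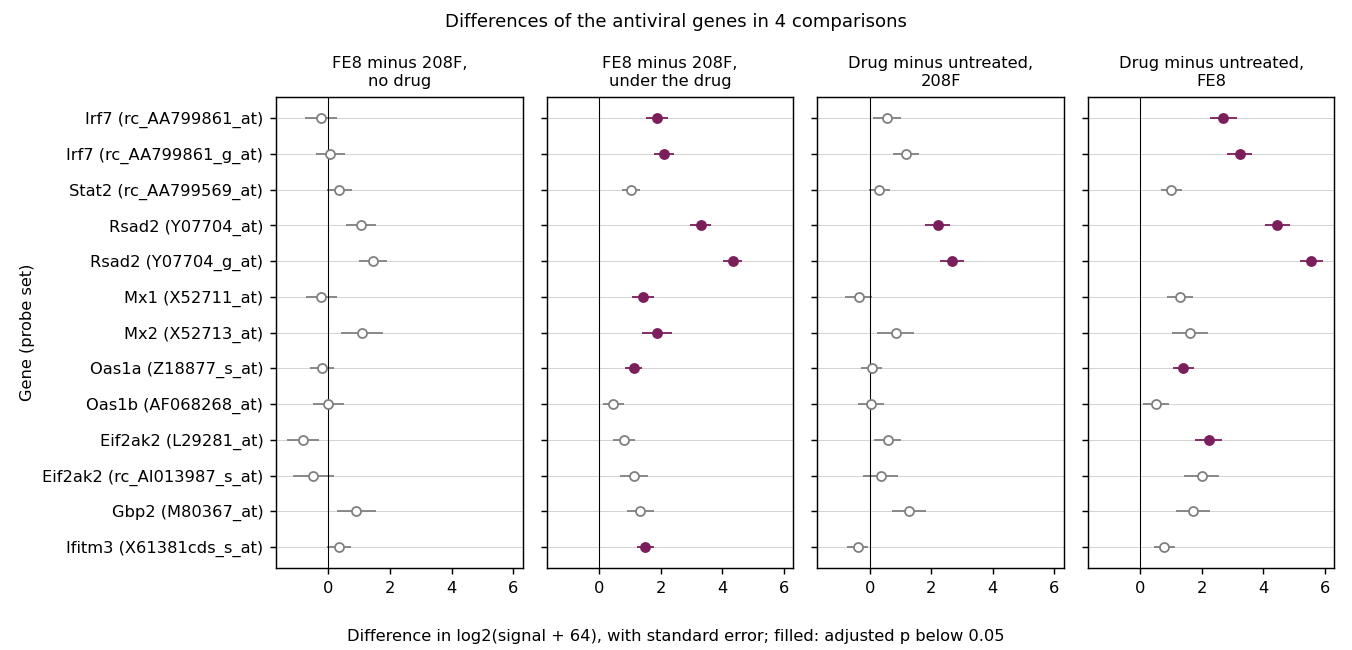
Difference in log2(signal + 64) of each probe set (x axis) in 4 comparisons, as point and standard error from limma, by gene and probe set (y axis). Filled points passed an adjusted p of 0.05: none of 13 for the lines without the drug, 8 for the lines under the drug, 2 for the drug in 208F and 6 for the drug in FE8.

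The drug difference was then taken in each line. For 208F, with treated n = 2 and 1 untreated array, Rsad2 rose and no other antiviral gene passed. The rise was 2.66 ± 0.38 with Y07704_g_at (adjusted p = 0.0024) and 2.21 ± 0.41 with Y07704_at (adjusted p = 0.0099), the 2 of 13 probe sets called, where 5.19% of all were called, 3.59% higher and 1.6% lower. Gbp2 stood at 1.27 ± 0.55 (adjusted p = 0.26), Irf7 at 1.18 ± 0.41 (adjusted p = 0.15) and 0.56 ± 0.44, and Mx2 at 0.84 ± 0.59. Ifitm3 at -0.39 ± 0.34 and Mx1 at -0.36 ± 0.43 were the values below 0, and Stat2, Oas1a, Oas1b and the Eif2ak2 probe sets lay between 0.05 and 0.58. The sign of Oas1a and Oas1b changed with the scaling of the arrays. The median of the 13 was 0.56 beside 0.11 over all probe sets. This median depended on the array used. It was 1.13 without 208F treated replicate 1 and 0.30 without replicate 2, beside 0.11 and 0.09 over all probe sets.

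For FE8, with treated n = 2 and 1 untreated array, 6 probe sets of 4 genes rose, 6 of 13 where 8.16% of all were called, 5.06% higher and 3.09% lower, and none fell. Rsad2 rose by 5.56 ± 0.38 with Y07704_g_at (adjusted p = 9.0e-06), the third largest rise of all 4818 probe sets, and by 4.45 ± 0.41 with Y07704_at. Irf7 rose by 3.23 ± 0.41 (adjusted p = 0.00085) and 2.69 ± 0.44, Eif2ak2 by 2.22 ± 0.45 (adjusted p = 0.012) with L29281_at, and Oas1a by 1.40 ± 0.34 (adjusted p = 0.031). The second Eif2ak2 probe set was at 1.99 ± 0.57 (adjusted p = 0.057), Gbp2 at 1.71 ± 0.55 (adjusted p = 0.087), Mx2 at 1.62 ± 0.59 (adjusted p = 0.13) and Mx1 at 1.29 ± 0.43 (adjusted p = 0.096). Stat2 at 1.01 ± 0.35, Ifitm3 at 0.77 ± 0.34 and Oas1b at 0.52 ± 0.43 did not pass either. The median was 1.71 beside 0.08 over all probe sets. Both treated arrays were above the control in 13 of 13, against 42.9% of all probe sets. The median was 1.45 without FE8 treated replicate 2 and 2.31 without replicate 1, beside 0.15 and 0.008 over all probe sets. In both of these fits fewer probe sets passed, among the 13 and among all, and the error came from the 208F duplicates alone. Without 208F treated replicate 1, and also without replicate 2, the count was 11, all but Stat2 and Oas1b, while the share of all probe sets called went up to 16.3% and 16.2%, and in those fits the error came from the FE8 duplicates alone.

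The drug differences of the lines were next set against each other. The value in FE8 was above that in 208F for all 13 probe sets, with a median gap of 1.63 on the log2 scale beside -0.04 over all probe sets, of which 46.9% were above 0. None of the 13 gaps passed the threshold, where 0.0623% of all did (3 probe sets, 0.0208% higher and 0.0415% lower), and 8 of 13 had an unadjusted p under 0.05, against 7.56% of all, so that a different drug response was not called for any member. Rsad2 came closest, at 2.89 ± 0.54 (adjusted p = 0.055) with Y07704_g_at and 2.24 ± 0.58 (adjusted p = 0.19) with Y07704_at. Irf7 was at 2.13 ± 0.63 and 2.05 ± 0.58, Mx1 at 1.65 ± 0.61, Eif2ak2 at 1.64 ± 0.63 and 1.63 ± 0.81, Oas1a at 1.33 ± 0.48 and Ifitm3 at 1.17 ± 0.48 (adjusted p = 0.58). Mx2 was at 0.78 ± 0.83 and Stat2 at 0.69 ± 0.50. Gbp2 was at 0.44 ± 0.78, and the fitted 0.46 ± 0.60 of Oas1b, below 64 on every array, gives no size. For Rsad2, Gbp2 and Mx2 untreated 208F lay below 64 and untreated FE8 above it, so the added value widened the gap. The reverse held for rc_AA799861_at of Irf7 and rc_AI013987_s_at of Eif2ak2. By plain signal, treated Gbp2 was 3.70 and 10.1 times the untreated array in 208F, and 2.88 and 7.62 times in FE8. For Mx2 these ratios were 1.84 and 6.68 in 208F, and 2.37 and 6.98 in FE8. Without 208F treated replicate 1 the count was 4, both probe sets of Rsad2 and of Irf7, and without 208F treated replicate 2 it was 6, with 4.28% and 2.05% of all probe sets called, while without either FE8 treated replicate it was 0. For Y07704_g_at of Rsad2 the adjusted p passed with a larger added value and after scaling the arrays to the same median. With a smaller added value it did not pass, and the gap was 1.93.

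**Figure D3:**
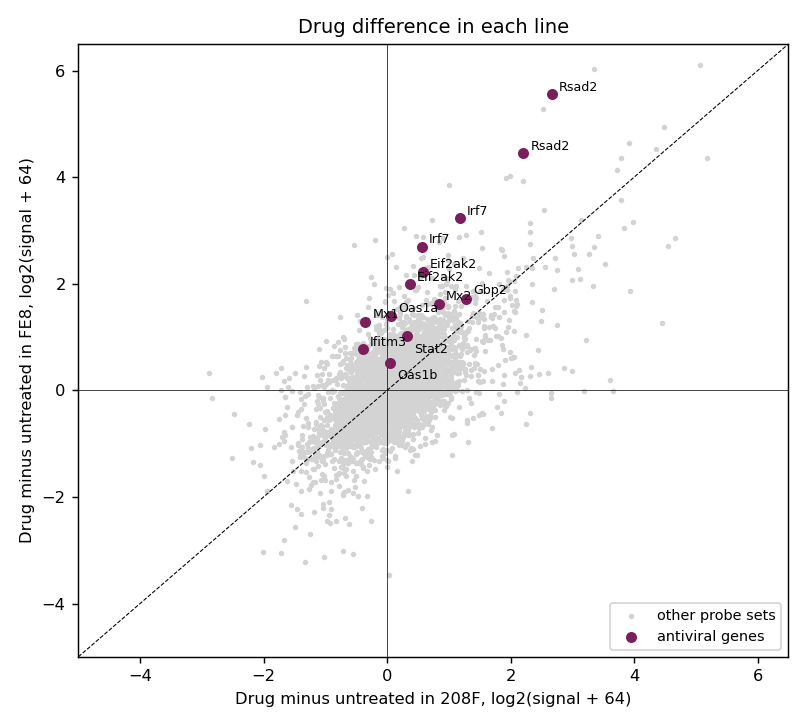
Drug difference in log2(signal + 64) in 208F (x axis) and in FE8 (y axis) for the 13 probe sets of the antiviral genes (purple, named) and all other tested probe sets (grey). The dashed line marks equal differences. All 13 purple points lie above it, by 0.44 to 2.89. By plain signal ratio Gbp2 goes the other way, at 3.70 and 10.1 in 208F and 2.88 and 7.62 in FE8. Oas1b is below 64 on every array, so its distance gives no size.

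The treated duplicates were not equal for these genes. In FE8, replicate 2 was above replicate 1 in 12 of 13 probe sets, the exception being Oas1a, where 44% of all probe sets were higher in replicate 2. The median difference was 0.76 on the log2 scale for the members and -0.06 for all probe sets. It was 1.38 for Mx2, 1.23 for Gbp2, 1.18 and 0.96 for Irf7, and 0.76 and 1.07 for Rsad2. In 208F, replicate 2 was above replicate 1 in 8 of 13 probe sets, against 50.6% of all, by 1.29 and 1.54 for Eif2ak2, 1.07 for Mx2 and 1.00 for Gbp2, and below it by up to 0.63 for Mx1. Both arrays of treated FE8 had the same chip lot and scan day. A separate rescan is recorded for replicate 2, the brightest array in 12 of 13 probe sets, and which scan gave its values is not given in the sources used here. The cause of the difference between the duplicates was not tested.

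**Figure D4:**
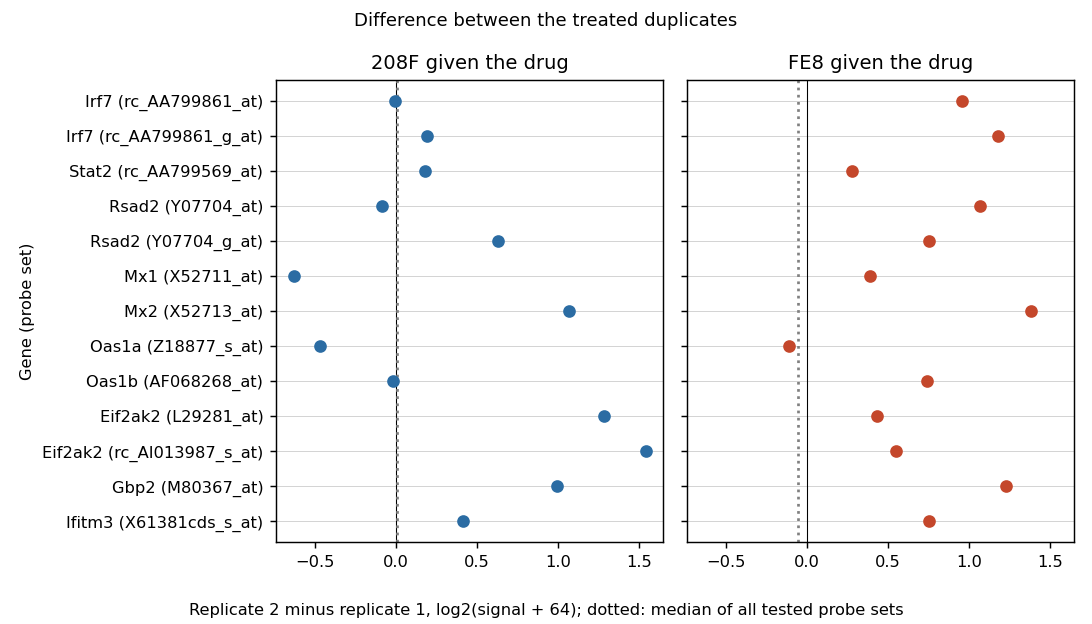
Replicate 2 minus replicate 1 in log2(signal + 64) (x axis) for each probe set (y axis) in treated 208F (left) and treated FE8 (right). The dotted line is the median of all tested probe sets. In FE8 12 of 13 points are above 0, and in 208F 8 of 13.

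Other genes of the pathway were then read from wider lists. Of 27 genes for interferons, their receptors and signalling, 10 were measured by 14 probe sets. Interferon beta (Ifnb1) was at 28 in untreated and 55 and 20 in treated 208F, and 21 in untreated and 49 and 30 in treated FE8. Its signal was thus below 64 on every array. None of the 14 passed for the lines without the drug, for the drug in 208F or for the drug in FE8. Of all probe sets, 5.92%, 5.19% and 8.16% did. An unadjusted p under 0.05 was found for 3, 3 and 3 of the 14, against 15.7%, 17.7% and 21.3% of all. Under the drug 1 of 14 was higher in FE8 (all probe sets, 3.42%), the phosphatase Ptpn6, an inhibitor of cytokine signalling in blood cells, by 1.49 ± 0.32 (adjusted p = 0.016). Its signal was 10 in untreated and 39 and 18 in treated 208F, and 35 in untreated and 182 and 208 in treated FE8. Every 208F array was thus below 64, so the size of this difference depends on the added value. The receptor subunit Ifnar1 ranged from 70 to 116 over the 6 arrays and the kinase Jak1 from 421 to 894. The 3 probe sets of the kinase Jak2 were at 1.05 to 1.20 for the drug in 208F and 0.43 to 0.69 in FE8, and those of the transcription factor Irf1 at 0.21 and 0.79 in 208F and 0.98 and 1.15 in FE8, none of which passed. Medians of the list were 0.46 for the drug in FE8 and 0.19 in 208F, beside 0.08 and 0.11 over all probe sets.

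Of 23 nucleic acid sensors and adaptors, 5 were measured by 7 probe sets. Those of Nfkbia, the inhibitor of NF-kappa-B and itself an NF-kappa-B target, rose in FE8 under the drug, by 1.96 ± 0.35 (adjusted p = 0.0061) and 1.48 ± 0.34 (adjusted p = 0.024), the 2 of 7 called there, where 5.06% of all were called higher. Their values in 208F were 1.03 ± 0.35 and 0.83 ± 0.34 and did not pass. Adar, an RNA-editing enzyme with an interferon-inducible form, was at 163 in untreated and 367 and 461 in treated FE8, with all 3 arrays of 208F between these levels. Its drug difference was 1.07 ± 0.36 in FE8 (adjusted p = 0.10) and -0.09 ± 0.36 in 208F. Tbk1, the kinase that activates interferon regulatory factors, was at 0.67 in FE8 and 0.48 in 208F without passing. Ifnb1, Ifnar1, Jak1, Jak2, Irf1, Adar, Tbk1 and Kdr were chosen after their values were seen.

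Of 64 other interferon-induced genes, 10 were measured by 17 probe sets, and they did not share 1 pattern. Cxcl10, a chemokine that attracts T cells, was higher in FE8 by 2.94 ± 0.36 (adjusted p = 0.00052) without the drug and by 2.92 ± 0.25 under it, with signals of 509, 1078 and 1416 in 208F and 4348, 8112 and 11840 in FE8. Psmb8, a subunit of the immunoproteasome, was at 29 in untreated and 686 and 545 in treated 208F, and 999 in untreated and 1303 and 1429 in treated FE8. Its untreated difference was 3.51 ± 0.36 and also passed, and it rose with the drug in 208F, by 2.86 ± 0.31, whereas in FE8 it stood at 0.43 ± 0.31. As above, the untreated lines have 1 array each and the error comes from the treated duplicates, and the 29 of Psmb8 lies below 64. The gap between its drug differences was -2.43 ± 0.44 (adjusted p = 0.055), opposite in sign to that of all 13 antiviral probe sets. In FE8 2 of 17 rose with the drug (all probe sets, 5.06%), Cxcl10 by 1.16 ± 0.31 (adjusted p = 0.043), where 208F stood at 1.18 ± 0.31 (adjusted p = 0.052), and Lgals3bp, a secreted glycoprotein, by 1.16 ± 0.32 with 1 of its probe sets. Under the drug 3 of 17 were higher in FE8 (all probe sets, 3.42%), namely Cxcl10, Psmb8 by 1.08 ± 0.25 and Tap1, a peptide transporter of antigen presentation, by 1.25 ± 0.28 with X57523_g_at, while X57523_at of Tap1 was at 0.50 ± 0.26 (adjusted p = 0.39). The median of the 17 was 0.56 for the drug in FE8 and 0.47 in 208F.

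The genes most like the antiviral group were sought among 1911 probe sets of other single genes whose log2 values spanned at least 1 over the arrays. Likeness was Pearson's correlation over the 6 arrays with the mean profile of the 10 genes, each centred. The points share groups and arrays, so the correlations are a description. The first 6 genes were Hmga1 (r = 0.987), Gch1 (0.986), Irgm2 (0.984), Plin2 (0.984), RT1-S3 (0.979) and Ccl4 (0.977). Irgm2, an immunity-related GTPase, had signals of 120 in untreated and 127 and 278 in treated 208F, and 160 in untreated and 1337 and 1917 in treated FE8, and rose in FE8 by 2.89 ± 0.42 (adjusted p = 0.0017). Ccl4, a chemokine of the macrophage inflammatory protein family, was at 11, 96 and 67 in 208F and 67, 338 and 728 in FE8, and rose in FE8 by 2.11 ± 0.46 (adjusted p = 0.018). Gch1, the entry enzyme of tetrahydrobiopterin synthesis, was at 111, 168 and 198 in 208F and 99, 465 and 681 in FE8, and rose in FE8 by 1.95 ± 0.38 (adjusted p = 0.010). All 3 had treated FE8 above the other 4 arrays. These genes were chosen for likeness to a profile that peaks in treated FE8. Their order and their rises there partly follow from that choice, so their p-values are no separate support.

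Hmga1, a chromatin protein that bends DNA, was at 2686, 3191 and 4254 in 208F and 3393, 5928 and 7617 in FE8. RT1-S3, a gene of the rat MHC class I region whose probe set may read related class I genes, was at 4, 14 and 48 in 208F and 42, 181 and 554 in FE8. Plin2, a lipid droplet protein, was at 26, 41 and 45 in 208F and 22, 116 and 149 in FE8 with this probe set, and its other probe set had r = 0.844. The other probe sets of Gch1 had r = 0.967 and 0.66, and those of RT1-S3 0.949 and 0.864. The drug difference in FE8 was 0.97 ± 0.29, 1.88 ± 0.54 and 1.19 ± 0.39 for these 3 probe sets, none of which passed. Other probe sets of these genes did pass there, X62875mRNA_g_at of Hmga1 at 2.44 ± 0.30, AF029240_g_at of RT1-S3 at 1.54 ± 0.39 and rc_AA893280_at of Plin2 at 6.03 ± 0.27, so that probe sets of 1 gene disagreed in size. Among the antiviral genes themselves, which make up the profile, r ran from 0.816 for Eif2ak2 with L29281_at to 0.987 for Stat2.

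**Figure D5:**
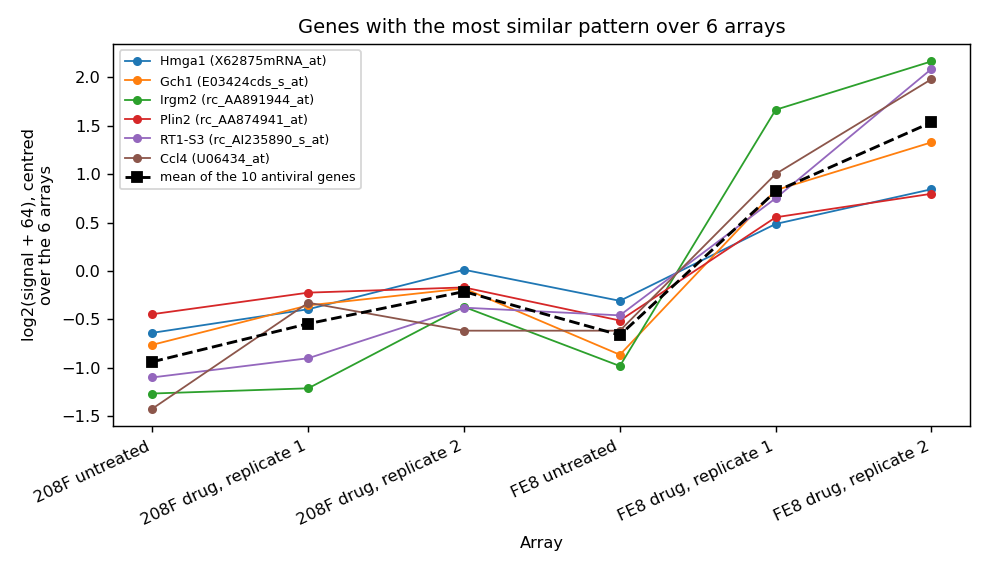
log2(signal + 64), centred over the 6 arrays (y axis), on each array (x axis) for the 6 genes most like the antiviral group (coloured) and for the mean of the 10 antiviral genes (black, dashed). Lines only guide the eye. The mean profile is at -0.94 and -0.66 on the untreated arrays of 208F and FE8, and reaches 0.82 and 1.53 in treated FE8.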

How the data were processed

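RNA of 6 samples was measured on an Affymetrix rat array (RG_U34A, per the file headers). The authors deposited 1 linear signal intensity for every probe set, made with MAS5 per the submitters' processing notes, which give no version or settings. They are whole numbers for 4847 probe sets, of which 29 are control probe sets and were left out. How these probe sets were selected is not given in the sources used here. Scan settings deposited for each array gave chip lots and scan days. The log2(signal + 64) values were modelled (limma 3.58.1, R 4.3.3) as 4 group means over 6 arrays (lmFit, eBayes with intensity trend, 2 residual and 9.017 prior degrees of freedom), with Benjamini-Hochberg adjustment over 4818 probe sets and a 2-sided threshold of 0.05, in 5 comparisons. The pseudocount holds down differences of dim genes. The fit was tested on simulated data. The number of arrays limits precision. Genes were named from the platform annotation: 3956 probe sets had 1 gene, 207 several and 655 none, and 3942 matched a RefSeq gene identifier. All members were named, with the 6 genes of most similar pattern and, of each other list, up to 6 called genes per comparison, and the text says where another gene was chosen after its values were seen. Members and lists were chosen with earlier results of these data known. Alternatives covered the pseudocount (16, 256), quantile and median scaling, the trend, a minimum mean signal of 200, each treated replicate left out and the replicate number as a block. Motifs and CG dinucleotides were counted in RefSeq promoters (GRCr8).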

Additional observations from a re-analysis of the deposited data

How the results depend on the processing

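No antiviral probe set past the threshold changed direction under any setting tried, although some settings leave the differences as they are. The count past the threshold for the lines without the drug was 1 instead of 0 with a pseudocount of 16, and 1 with the replicate block. Of all probe sets, 6.06% and 5.92% passed there. For the drug in 208F the count of members was 1 instead of 2 with the larger pseudocount, where 4.32% of all probe sets passed. For the difference between the drug effects it was 1 instead of 0 with the larger pseudocount (0.125% of all) and 1 after median scaling (0.56%). Leaving out each treated replicate in turn gave 0 to 2 for the lines without the drug, 2 to 10 under the drug, 2 to 6 for the drug in 208F, 3 to 11 in FE8 and 0 to 6 for the difference between the drug effects. Each of those fits takes its error from 1 pair of duplicates and estimates its prior degrees of freedom anew. Their counts, which rose as well as fell, are not comparable with those of the main fit. What moved them was not tested.

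Values that changed sign had not passed the threshold. For the drug in 208F, Oas1a went from 0.07 to -0.074 after quantile normalization and -0.068 after median scaling, and Oas1b to -0.00089 after quantile normalization. With 1 replicate left out, the same difference ran from -0.063 to 1.22 and from -0.41 to 1.13 for the Eif2ak2 probe sets and from -0.16 to 0.30 for Oas1a, and the gap between drug differences of Gbp2 ran from -0.18 to 1.05. Over all settings and comparisons, 622 values of single probe sets kept direction and side of the threshold, 24 lost the threshold, 46 gained it and 8 changed sign. Many of these values could not change sign. The trend, the replicate block and the minimum mean signal leave every difference as it is. Leaving out a treated array changes neither the untreated line difference nor the drug difference of the other line. The tally therefore overstates how stable the directions are.

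Quantile normalization moved the median of all probe sets from 0.11 to -0.03 for the drug in 208F and from 0.08 to -0.04 in FE8. With it, 164 of all probe sets passed instead of 250 in 208F, and 257 instead of 393 in FE8. With 1 replicate left out, the number of all probe sets past the threshold ran from 109 to 541 and from 96 to 530 for the lines without and with the drug, from 75 to 663 and from 76 to 783 for the drug in 208F and FE8, and from 0 to 206 for the difference, which had 10, 6 and 27 with the smaller and larger pseudocounts and median scaling, and 0 with the other 4 settings, against 3.

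Replicate numbers are not stated to pair the arrays, and with 2 pairs the differences between replicates correlated across probe sets at r = 0.319. With the replicate block, 9 member probe sets passed for the lines under the drug, where 6.75% of all probe sets did. For the drug it was 2 in 208F (4.48% of all) and 9 in FE8 (8.9%), and for the difference 0 (0%). Of the 8 under the drug 7 were kept, Mx1 being lost (adjusted p = 0.066) and Gbp2 and Stat2 gained. Probe sets with signals below 64 on every array (Oas1b) or on 4 of 6 (Mx1) have differences held down by the pseudocount. The minimum mean signal of 200 left 10 of 13 to test.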
